A study of Mus musculus with 9 samples.

Results

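Hmgcs1, Idi1, Fdft1, Sqle, Lss, Cyp51 and Insig1 are 7 genes of sterol metabolism, taken by gene name from a table of 35112 mouse genes. Of the 7, 6 encode enzymes that build cholesterol, in the order given, and Insig1 encodes a sterol-dependent inhibitor of the pathway. None is a receptor or carrier that takes cholesterol into a cell, so uptake is described here from a wider list of genes. The pathway terms carried by the table name the same biology: its Reactome term for cholesterol biosynthesis covers 26 genes and includes the 6 enzymes.

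RNA with poly(A) tails was sequenced from the brains of 9 wild-type C57BL/6 mice in 3 groups of 3 separate animals. The sham group had the control treatment, the ICH group an intracerebral haemorrhage, which is a bleed into the brain, and the ICH+P7C3-A20 group the same haemorrhage together with P7C3-A20, a small molecule of the aminopropyl carbazole class. All brains were taken 72 hours later. The labels give no brain region, dose, route, age or sex, and the haemorrhage is shared by both ICH groups, so P7C3-A20 without haemorrhage was not measured.

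The brain makes nearly all of its own cholesterol, because lipoproteins of the blood do not pass an intact blood-brain barrier. Cells join acetyl-CoA units into mevalonate, then into isoprenoids, squalene and lanosterol, and finally trim lanosterol to cholesterol. When sterols run low in the endoplasmic reticulum, the SREBP transcription factors, escorted by Scap, are released to switch on the enzymes and lipoprotein uptake, and the Insig proteins hold this release back when sterols are plentiful.

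The 9 libraries held 51537047 to 63324728 estimated counts, and each member had between 1353 and 15955 in every library, so that all 7 passed the filter on low counts, as did 21900 genes in all. Libraries are named by group and replicate. CPM are counts scaled to one common library total after edgeR's TMM correction, and compare a gene between libraries. FPKM are fragments scaled by transcript length and by library total, and compare levels between genes. A gene is called changed when edgeR's quasi-likelihood test over all 9 libraries gives a Benjamini-Hochberg adjusted p under 0.05, and each log2 change is given ± its error. Mitochondrially encoded transcripts took under 12% of the counts in sham 3, ICH 3 and ICH+P7C3-A20 2 and 14.3% to 18.5% in the other libraries. ICH+P7C3-A20 1 stood apart from the rest of its group on the first principal component, at -34.5 against 17.4 and 18.5. Markers of cortical neurons, which speak to the region sampled, summed to 1359, 509 and 593 CPM in ICH+P7C3-A20 1, 2 and 3. They reached at most 496 CPM in sham and 355 CPM in ICH, so every ICH+P7C3-A20 library lay above all others. The part of the region sampled in the comparisons with ICH+P7C3-A20 was not tested.

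Promoter windows in RefSeq (GRCm38.p6), from 250 bases before to 50 bases after a gene's start, were at hand for 5 of the 7 members: Hmgcs1, Idi1, Lss, Cyp51 and Insig1. The windows of Hmgcs1, Idi1 and Insig1 are shown. Hmgcs1 is the first enzyme of the set and, of the 5, the only one whose window holds an exact match to the sterol element pattern searched for. Idi1 and Insig1 are the members with the largest changes after haemorrhage. Capitals mark CCAAT, the box bound by NF-Y, read on either strand (ATTGG is the same box on the other strand), and in Hmgcs1 also the sterol regulatory element TCACNCCAC, the type of site that SREBP proteins bind.
Hmgcs1 promoter, chr13:119690101-119690400, plus strand: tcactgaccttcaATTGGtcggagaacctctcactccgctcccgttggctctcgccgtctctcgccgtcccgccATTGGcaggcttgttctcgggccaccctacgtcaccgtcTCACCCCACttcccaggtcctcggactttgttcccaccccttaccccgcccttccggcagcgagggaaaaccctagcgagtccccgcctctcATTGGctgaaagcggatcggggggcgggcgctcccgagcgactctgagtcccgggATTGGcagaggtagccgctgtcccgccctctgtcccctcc
Idi1 promoter, chr13:8885356-8885655, plus strand: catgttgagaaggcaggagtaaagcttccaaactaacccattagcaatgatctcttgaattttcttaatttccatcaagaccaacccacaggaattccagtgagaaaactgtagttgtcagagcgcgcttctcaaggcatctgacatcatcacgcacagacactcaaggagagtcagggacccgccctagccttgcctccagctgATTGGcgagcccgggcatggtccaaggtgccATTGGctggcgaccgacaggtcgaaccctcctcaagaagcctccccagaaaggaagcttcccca
Insig1 promoter, chr5:28071162-28071461, plus strand: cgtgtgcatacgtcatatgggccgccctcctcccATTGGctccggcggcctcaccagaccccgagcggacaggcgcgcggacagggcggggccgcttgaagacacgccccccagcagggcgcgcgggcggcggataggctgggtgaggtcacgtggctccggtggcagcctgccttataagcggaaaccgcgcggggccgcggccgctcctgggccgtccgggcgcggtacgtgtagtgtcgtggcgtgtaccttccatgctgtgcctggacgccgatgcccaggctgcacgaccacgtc

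Every one of the 5 member windows held CCAAT, which 37.4% of the 32851 windows in the table hold. All 5 also held the GC box GGGCGG on 1 of the strands, as did 35.7% of all windows. The element TCACNCCAC stood in the Hmgcs1 window alone among the 5, as TCACCCCAC at chr13:119690214-119690222, and it stands in 1.24% of all windows. It starts 137 bases before the RefSeq start used for the window, which differs from the start of the Hmgcs1 position given below. Hmgcs1 had 4 CCAAT boxes, Idi1 had 2, and Cyp51, Lss and Insig1 had 1 each. These are exact matches of letters within a 300-base window. Other forms of the sterol element were not searched for, and neither factor's binding was measured.

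Per unit of transcript length, Hmgcs1 was the most abundant of the 7 in every group. Hmgcs1 encodes the cytosolic synthase that makes HMG-CoA, from which mevalonate is formed, and its mean level was 39.5 ± 7.97 FPKM in sham, 29.2 ± 3.04 in ICH and 29.8 ± 7.5 in ICH+P7C3-A20 (SD, n = 3). Lss was the least abundant, at 3.76 ± 0.411, 3.04 ± 0.335 and 3.61 ± 0.223 FPKM. Sqle held place 6 of the 7 in each group, at 7.41 ± 0.737, 6.71 ± 1.14 and 6.03 ± 1.06 FPKM, and Idi1 place 5, at 9.78 ± 2.14, 6.92 ± 0.706 and 7.57 ± 2.48 FPKM.

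The middle of the order differed by group. Insig1 and Fdft1 came next in sham, at 15.1 ± 1.7 and 15.0 ± 2.17 FPKM, with Insig1 the higher in 1 of 3 libraries, and Cyp51 followed at 13.0 ± 1.46 FPKM. In ICH the order was Cyp51 at 11.5 ± 0.908, Fdft1 at 10.9 ± 1.19 and Insig1 at 9.48 ± 0.975 FPKM, each above the next in all 3 libraries although their SDs overlap. In ICH+P7C3-A20, Fdft1 at 11.8 ± 1.55, Insig1 at 11.1 ± 2.67 and Cyp51 at 10.5 ± 2.68 FPKM lay within each other's SD. By its mean Insig1 thus held place 2 in sham and place 4 in ICH.

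ICH was compared with sham to ask how the haemorrhage altered the transcripts of the set. Of the 7 members, 5 were called lower in ICH (Hmgcs1, Idi1, Fdft1, Lss and Insig1) and none higher, where 26.0% of all tested genes were called, 10.4% lower and 15.6% higher. The steepest fall was that of Insig1, by 39.5%, and the other 4 fell by 22.1% to 31.2%. Sqle and Cyp51 were not called, with log2 changes of -0.20 and -0.22. The median log2 change of the members was -0.48, against 0.00 over all tested genes. In CPM the ICH libraries lay below all sham libraries for 7 of 7 members, which was so for 18.8% of tested genes. In bulk tissue, fewer cells of a type and less RNA per cell cannot be told apart.

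**Figure D1:**
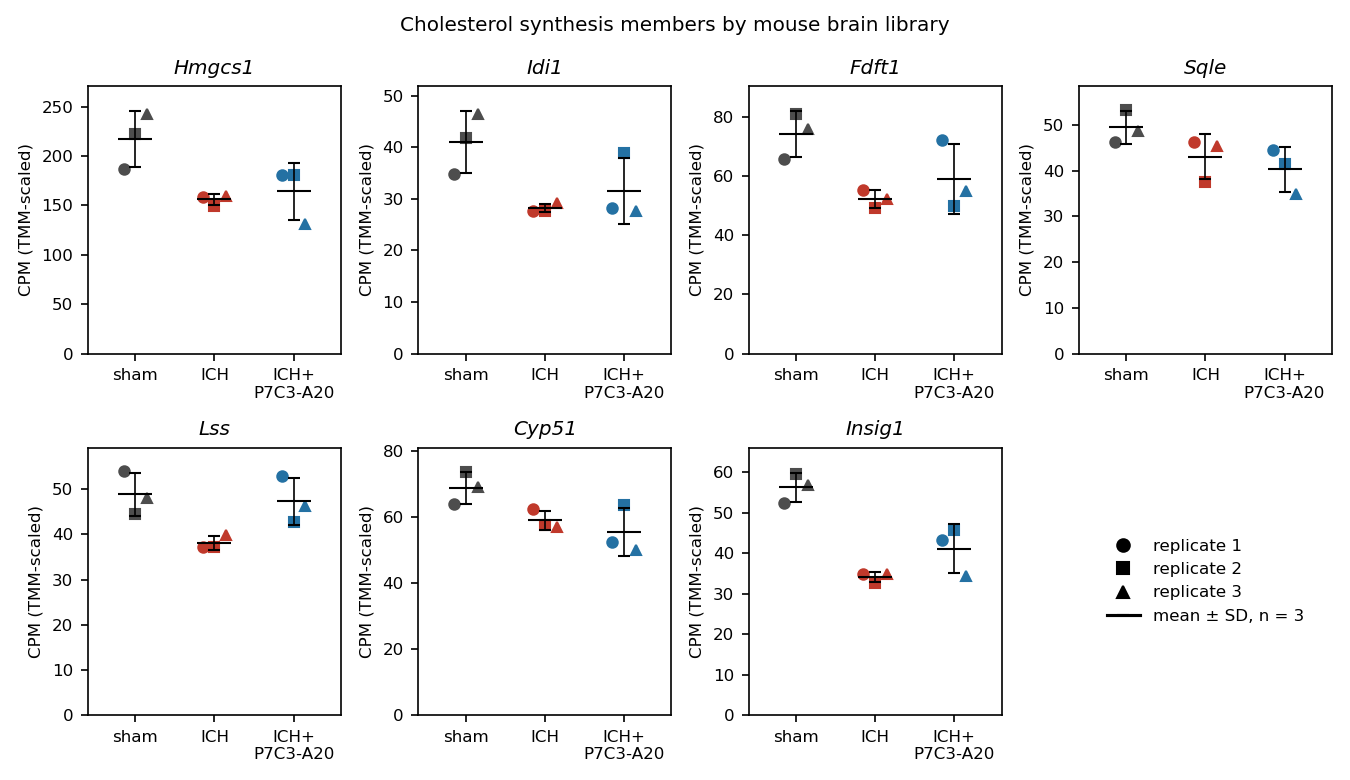
Level of each member in the 9 libraries, in CPM on axes that start at 0, by group; symbols give the replicate and bars the mean ± SD (n = 3). The 3 ICH libraries of Insig1 sit between 32.6 and 34.8 CPM, below sham at 52.3 to 59.4, and ICH+P7C3-A20 at 34.4 to 45.8 overlaps ICH.

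Hmgcs1 (ENSMUSG00000093930, chr13:119690379-119708260, GRCm38) measured 187, 222 and 242 CPM in sham 1, 2 and 3 and 158, 149 and 159 CPM in ICH 1, 2 and 3. Sham 1 was the lowest sham library and still exceeded every ICH library. The log2 change was -0.48 ± 0.14, a fall by 28.2% (edgeR adjusted p = 0.0306). That call ended when any 1 of sham 2, sham 3, ICH 1, ICH 2 or ICH 3 was left out, with adjusted p of 0.0749, 0.0798, 0.0808, 0.108 and 0.0767 and log2 changes of -0.39 to -0.49.

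Idi1 (ENSMUSG00000058258, chr13:8885501-8892451) encodes the isomerase that makes dimethylallyl diphosphate, the starter unit of the isoprenoid chain. It measured 34.7, 41.7 and 46.5 CPM in sham 1, 2 and 3 and 27.7, 27.7 and 29.2 CPM in ICH 1, 2 and 3. The ICH libraries were tightly grouped and all lay below sham, whose own spread was wider (SD 5.92 against 0.843 CPM). Idi1 fell by 31.2%, a log2 change of -0.54 ± 0.15 (edgeR adjusted p = 0.0243), and the call ended without sham 2 (0.061), sham 3 (0.0678), ICH 1 (0.0775), ICH 2 (0.08) or ICH 3 (0.0598). A pseudogene-like copy, Gm13502, matches 711 bases of an Idi1 transcript at 91.3% identity. It had up to 247 counts in a library, and its counts summed over all libraries were 7.09% of those of Idi1. Another gene model, Gm35570, matches 681 bases at 97.7% identity and is not among the 35112 genes, so its count is unknown. Idi1 may thus share reads with Gm13502 and Gm35570.

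Fdft1 (ENSMUSG00000021273, chr14:63145150-63179578) encodes squalene synthase, the first enzyme that commits isoprenoids to sterols. Its values were 65.8, 81.2 and 76.0 CPM in sham 1, 2 and 3 and 55.4, 49.1 and 52.2 CPM in ICH 1, 2 and 3. The groups did not overlap, with sham 1 the nearest to ICH. Fdft1 had a log2 change of -0.51 ± 0.14, a fall by 29.7% (edgeR adjusted p = 0.0221), and the call ended without sham 2 (0.0746), ICH 2 (0.0892) or ICH 3 (0.0667). Fdft1 shares 774 bases with Ctsb on the opposite strand, and Ctsb, a lysosomal protease gene singled out after its values were seen, had 27229 to 109135 counts and moved the other way, by 1.84 ± 0.15 (edgeR adjusted p = 1.5e-05). Whether the counting used strand is not given in the sources used here, so reads from the shared bases cannot be told apart.

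Sqle (ENSMUSG00000022351, chr15:59315077-59331192) encodes squalene epoxidase, an oxygen-requiring and rate-controlling step. It measured 46.3, 53.3 and 48.8 CPM in sham 1, 2 and 3 and 46.3, 37.5 and 45.5 CPM in ICH 1, 2 and 3. ICH 1 equalled sham 1 to the digits given and lay below it by less than that rounding, so the groups were only just apart. The log2 change was -0.20, with a 95% interval of -0.47 to 0.07 (edgeR adjusted p = 0.282).

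Lss (ENSMUSG00000033105, chr10:76531588-76557138), lanosterol synthase, closes the sterol rings. Its values were 54.0, 44.6 and 48.1 CPM in sham 1, 2 and 3 and 37.3, 37.2 and 39.8 CPM in ICH 1, 2 and 3. All ICH libraries lay below sham. Lss had a log2 change of -0.36 ± 0.11, a fall by 22.1% (edgeR adjusted p = 0.0355), and the call ended without sham 1 (0.137), ICH 1 (0.11), ICH 2 (0.113), ICH 3 (0.0701) or ICH+P7C3-A20 3 (0.0533).

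Cyp51 (ENSMUSG00000001467, chr5:4081145-4104746) encodes lanosterol demethylase, the first enzyme after ring closure. It measured 63.8, 73.5 and 69.2 CPM in sham 1, 2 and 3 and 62.3, 57.5 and 57.1 CPM in ICH 1, 2 and 3. ICH 1 lay just under sham 1, and the groups did not overlap. The log2 change was -0.22, with a 95% interval of -0.47 to 0.02 (edgeR adjusted p = 0.17). By position Cyp51 overlaps 166 bases of Akap9 on the opposite strand, which had 5827 to 14863 counts. Reads from those bases cannot be told apart either.

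Insig1 (ENSMUSG00000045294, chr5:28071363-28078662) is itself switched on by SREBP, and its protein retains SREBP precursors in the endoplasmic reticulum. Its values were 52.3, 59.4 and 56.9 CPM in sham 1, 2 and 3 and 34.8, 32.6 and 34.7 CPM in ICH 1, 2 and 3. The gap between the groups was wider than the whole range of either. The log2 change was -0.72 ± 0.12 (edgeR adjusted p = 0.00125). Among the 7 members only Insig1 stayed called when each of the 9 libraries was left out in turn, with adjusted p up to 0.00914, and under all 13 other settings tried (up to 0.0266).

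With a term for the low mitochondrial share, chosen after the data were seen, 5 members were again called lower, against 13.6% of tested genes in that fit. Within the 6 libraries above 12%, 2 per group, Idi1 (log2 change -0.46, edgeR adjusted p = 0.0345) and Insig1 (-0.73, adjusted p = 0.00894) were called, and Hmgcs1, Fdft1 and Lss were at -0.41, -0.49 and -0.41 with adjusted p of 0.119, 0.0678 and 0.0612. Lower calls over all genes numbered 1719 within those 6 libraries, against 2283 in all 9. The 3 libraries below 12%, 1 per group, are too few for a test. Scaling by library totals alone ended the calls of Hmgcs1 (adjusted p = 0.133), Idi1 (0.133) and Lss (0.126), and limma on log2(FPKM + 1) left Insig1 as the only member called. Every member's log2 change stayed below zero in each of the 22 other fits of ICH against sham.

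The unit matters to the separation of the groups. In FPKM the ICH libraries lay below all sham libraries for Idi1, Fdft1 and Insig1 and overlapped with sham for Hmgcs1, Sqle, Lss and Cyp51. The share of all tested genes with such a separation in FPKM is not given here. The library with the low mitochondrial share was the highest of its group in FPKM for 7 of 7 members in sham, 6 in ICH and 5 in ICH+P7C3-A20, and for 56.4%, 56.9% and 63.4% of tested genes. In CPM this held for 2, 3 and 4 members and for 40.1%, 36.2% and 34.9% of tested genes. The part of the mitochondrial share in the members' differences was not tested beyond the fits above.

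**Figure D2:**
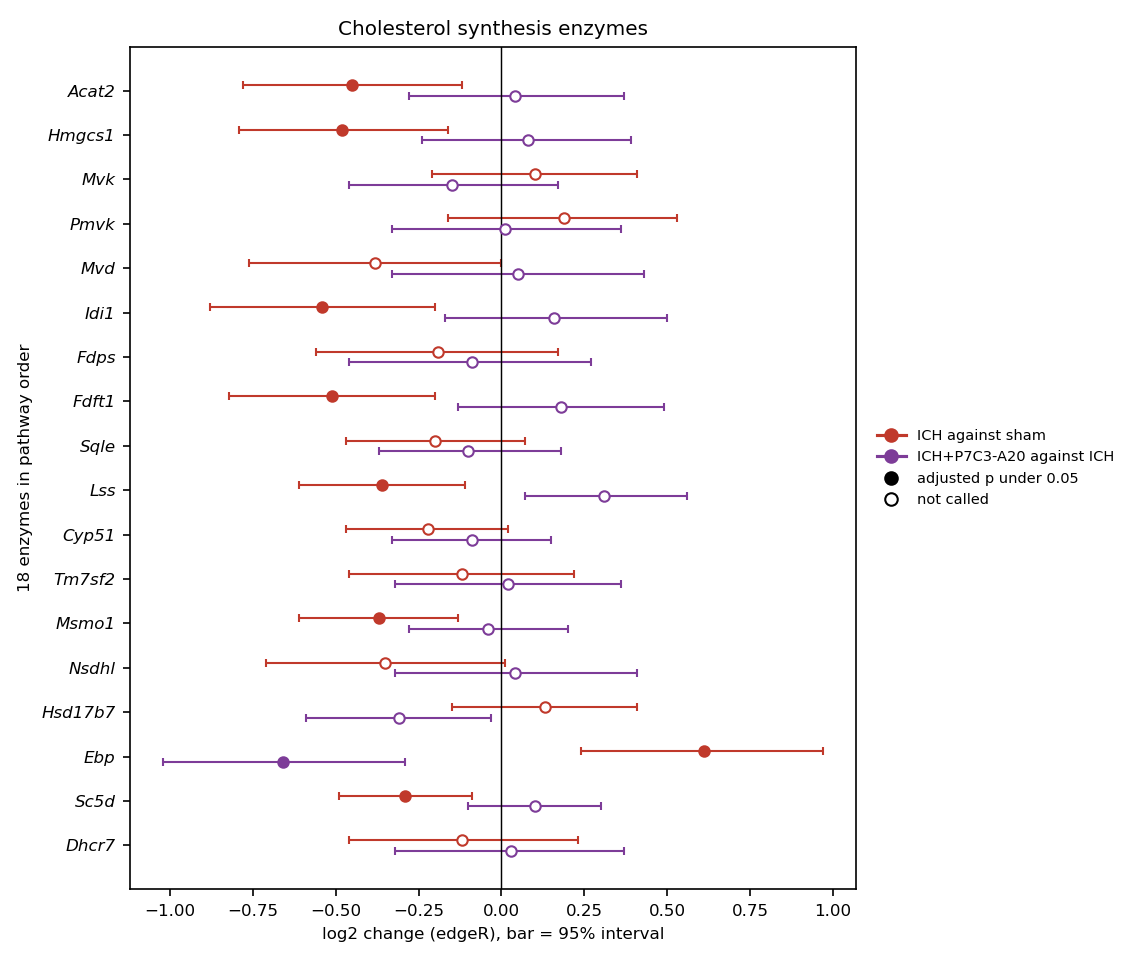
Log2 change of 18 of the 20 cholesterol synthesis enzymes in pathway order, from edgeR with 95% intervals, in ICH against sham and in ICH+P7C3-A20 against ICH; filled points are called. In ICH against sham 7 of the 18 are called below zero and Ebp above it, and in ICH+P7C3-A20 against ICH only Ebp is called.

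A list of 20 synthesis enzymes, of which 6 are members, places the set in its pathway. In ICH against sham, 9 of the 20 fell and 1 rose, where 10.4% of all tested genes were called lower and 15.6% higher. A log2 change below zero was found in 16 of the 20 and in 49.8% of all tested genes. The median log2 change of the 20 was -0.32. Among the 14 enzymes that are not members, 5 fell, Acat2, Msmo1 and Sc5d among them, and Ebp rose.

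Acat2 acts at the start of the pathway, and Msmo1, Ebp and Sc5d act after ring closure. Acat2, the cytosolic thiolase that feeds Hmgcs1, fell by 26.8% (log2 change -0.45 ± 0.15, edgeR adjusted p = 0.047). Msmo1, a methylsterol oxidase, fell by 22.5% (-0.37 ± 0.11, adjusted p = 0.0305). Sc5d, a sterol desaturase, fell by 18.4% (-0.29 ± 0.09, adjusted p = 0.0344). Ebp, the sterol isomerase, went the other way, from 10.6 to 12.6 CPM in sham to 18.3, 17.0 and 18.4 CPM in ICH 1, 2 and 3, a log2 change of 0.61 ± 0.17 (edgeR adjusted p = 0.0211). Acat2 and Sc5d are named after their values were seen.

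These calls rest on small margins. Ebp was no longer called without sham 1, ICH 1 or ICH 3 (adjusted p 0.0681 to 0.0795), and Msmo1 without sham 2, sham 3 or any ICH library (0.0563 to 0.119). Sc5d lost its call without sham 1, sham 2, ICH 2, ICH 3 or ICH+P7C3-A20 3 (0.0517 to 0.137). Acat2 lost it without any sham library, any ICH library or ICH+P7C3-A20 2 (0.0551 to 0.168). The number of enzymes called in either direction fell from 10 to 1 without ICH 3, 2 without ICH 2, 3 without sham 2, 4 without ICH 1, 5 without sham 1 and 6 without sham 3. Over all genes it fell from 5701 to 4075, 4079, 5054, 4190, 4273 and 5561 in the same order. Scaling by library totals alone left 2 of the 20 called, limma on log2(FPKM + 1) left 0, and DESeq2 called 10. Library totals alone and limma on FPKM at both pseudocounts (1 and 0.1) ended the calls of Acat2, Msmo1, Sc5d and Ebp (adjusted p 0.0503 to 0.279). The replicate block and the 6 libraries above 12% ended those of Acat2, Msmo1 and Sc5d (0.0508 to 0.156), and testing without a filter those of Acat2 (0.0502) and Sc5d (0.0552).

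Some genes that sense sterols and control SREBP were called in ICH, in both directions. Of 14 on that list, which holds Insig1, 3 fell and 2 rose, with a median log2 change of -0.14. Over all tested genes 10.4% were called lower and 15.6% higher, shares that also apply to the ICH counts of the next lists. Srebf2, which encodes the SREBP that drives cholesterol synthesis, measured 194, 185 and 205 CPM in sham 1, 2 and 3 and 159, 159 and 154 CPM in ICH 1, 2 and 3. Its groups did not overlap, and its log2 change was -0.30 ± 0.09 (edgeR adjusted p = 0.0299). Srebf1, which encodes the SREBP more tied to fatty acid synthesis, rose from 49.6, 45.0 and 39.7 CPM in sham 1, 2 and 3 to 69.9, 77.0 and 75.5 CPM in ICH 1, 2 and 3 (log2 change 0.73 ± 0.13, edgeR adjusted p = 0.00192). Insig2, the paralogue of Insig1, was not called, at -0.23 with a 95% interval of -0.54 to 0.07 (edgeR adjusted p = 0.257).

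The remaining calls of the list were in genes of the ubiquitin system. Rnf145, a ubiquitin ligase of the endoplasmic reticulum, fell by 19.4% (log2 change -0.31 ± 0.10, edgeR adjusted p = 0.0397), and Erlin2, which takes part in protein breakdown at the same membrane, rose (0.38 ± 0.13, adjusted p = 0.0498). The Srebf2 call ended without sham 1, sham 3 or any ICH library (adjusted p 0.0653 to 0.108), and that of Rnf145 without those libraries or ICH+P7C3-A20 3 (0.0538 to 0.117). Erlin2 was called without sham 1 but not without any of the other 8 libraries (0.0513 to 0.153). Library totals alone, limma on FPKM at both pseudocounts, the replicate block and the 6 libraries above 12% also ended the calls of Srebf2 (adjusted p 0.0568 to 0.277) and Rnf145 (0.0703 to 0.343). Rnf145 was not called without a filter or in the compared groups alone either (both 0.0554), and Erlin2 was called under 4 of the 13 other settings (0.0603 to 0.226 in the rest). Srebf1 kept its call in all 22 other fits.

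Uptake and intracellular transport genes, the other side of the cell's cholesterol supply, had a median log2 change of 0.26 over 17 genes, of which 7 rose and 2 fell in ICH. Lipa, the lysosomal lipase that frees cholesterol from lipoprotein esters, rose from 13.5 to 19.8 CPM in sham to 60.7 to 68.8 CPM in ICH (log2 change 2.03 ± 0.19, edgeR adjusted p = 3.72e-05). Mylip, a ligase that sends lipoprotein receptors to degradation, rose by 1.35 ± 0.14 (edgeR adjusted p = 6.59e-05), and Npc2, a lysosomal cholesterol carrier, by 1.26 ± 0.18 (0.000572). The receptor gene Lrp1 rose by 0.50 ± 0.11 (edgeR adjusted p = 0.00822). Vldlr, a receptor of the same family, fell, with a log2 change of -0.46 ± 0.11 (edgeR adjusted p = 0.0117, but 0.0583 without ICH 2). The Vldlr call also ended with library totals alone (0.109) and with limma on log2(FPKM + 1) (0.16) and log2(FPKM + 0.1) (0.157). Stard4, a cytosolic sterol carrier named after its values were seen, fell by 0.63 ± 0.19 (edgeR adjusted p = 0.036), a call that ended without sham 2, sham 3, ICH 1 or ICH 2 (0.0502 to 0.133), with library totals alone, with limma at both pseudocounts, with the replicate block and in the 6 libraries above 12% (0.0585 to 0.193).

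Of 7 genes that store or hydroxylate cholesterol, 4 rose and 1 fell in ICH. Ch25h, which makes an oxysterol that blocks SREBP release, went from 0.0455 to 0.271 CPM in sham to 15.5 to 18.9 CPM in ICH (log2 change 6.88 ± 0.49, edgeR adjusted p = 8.07e-06). Sham held as few as 3 counts of Ch25h in a library, and the size of the change moved with the sham libraries kept, to 7.65 without sham 1 and 6.42 without sham 3. It was 3.44 by limma on log2(FPKM + 1) and stayed called in all 22 other fits. Soat1, which esterifies cholesterol for storage, rose by 1.09 ± 0.11 (edgeR adjusted p = 7.69e-05). The oxysterol and sterol hydroxylase genes Cyp7b1 and Cyp27a1 rose by 0.78 ± 0.15 and 0.64 ± 0.21 (edgeR adjusted p = 0.00395 and 0.044), the latter no longer called without sham 1, sham 3 or any ICH library (0.0748 to 0.151). Upper quartile scaling, testing without a filter, the replicate block, quantile normalization of FPKM and the 6 libraries above 12% ended the Cyp27a1 call too (0.0544 to 0.127). Cyp46a1, the neuronal hydroxylase whose product carries cholesterol out of the brain, fell by 27.3% (log2 change -0.46 ± 0.14, edgeR adjusted p = 0.0369), a call that ended without any sham library, ICH 1, ICH 3 or ICH+P7C3-A20 3 (0.0547 to 0.141), with the replicate block (0.0612) or in the 6 libraries (0.0613).

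Oxysterols also activate the LXR receptors, and 4 of 8 LXR receptor and target genes rose in ICH while none fell. Abca1, the pump that loads cholesterol onto apolipoproteins, rose by 1.99 ± 0.18 (edgeR adjusted p = 2.59e-05). The receptor gene Nr1h3 rose by 1.26 ± 0.24, the phospholipid enzyme gene Lpcat3 by 1.10 ± 0.15 and the apolipoprotein gene Apoe by 0.66 ± 0.14 (edgeR adjusted p = 0.0033, 0.000458 and 0.00669). Of 12 fatty acid synthesis genes tied to SREBP, 2 rose and 1 fell. These counts are near the shares of all tested genes, 15.6% called higher and 10.4% lower. Me1, which makes NADPH, rose by 0.72 ± 0.11 (edgeR adjusted p = 0.000752) and Elovl5, an elongase, by 0.44 ± 0.11 (0.0158). Acly, which supplies cytosolic acetyl-CoA, was at -0.33 ± 0.10 (0.0312). The Elovl5 call ended without sham 1, ICH 1 or ICH 2 (0.0539 to 0.0616) and that of Acly without sham 1, sham 2, ICH 2 or ICH 3 (0.062 to 0.133). Limma at both pseudocounts ended the Elovl5 call (0.053 and 0.0518), quantile normalization of FPKM that of Apoe (0.0801), and library totals alone, limma at both pseudocounts and the 6 libraries that of Acly (0.121 to 0.225).

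Cell type markers moved in the same libraries. Of 10 pan-neuronal markers 8 fell in ICH, and their summed level was 5839.8 to 6076 CPM in sham and 3578 to 3914 CPM in ICH. All 10 striatal neuron markers fell (3756 to 6364 CPM in sham, 2562 to 2989 CPM in ICH), and all 12 microglia and macrophage markers rose (395 to 518 CPM, then 2338 to 2665 CPM). Of 12 oligodendrocyte and myelin markers 1 rose, Cldn11, and none fell, with a summed level of 9846 to 12197 CPM in sham and 13636 to 16501 CPM in ICH. Homeostatic astrocyte markers, 4 of 10 of which rose, summed to 4878 to 5147 CPM and 5239 to 6757 CPM. All 10 reactive astrocyte markers rose, from a sum of 149 to 227 CPM in sham to 4547 to 5459.6 CPM in ICH, with a median log2 change of 4.61. Of 10 endothelial markers 9 rose (256 to 297 CPM, then 465 to 522 CPM). Of 10 cortical neuron and 10 thalamic and hypothalamic markers 1 each fell, and of 8 choroid plexus markers none was called, with a sum of 36.0 to 3253 CPM within ICH. The 20 synthesis enzymes together summed to 959 to 1098 CPM in sham and 794 to 862 CPM in ICH. None of the markers on these lists was at 0 in every library, and the part of cell composition in the members' changes was not tested.

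**Figure D3:**
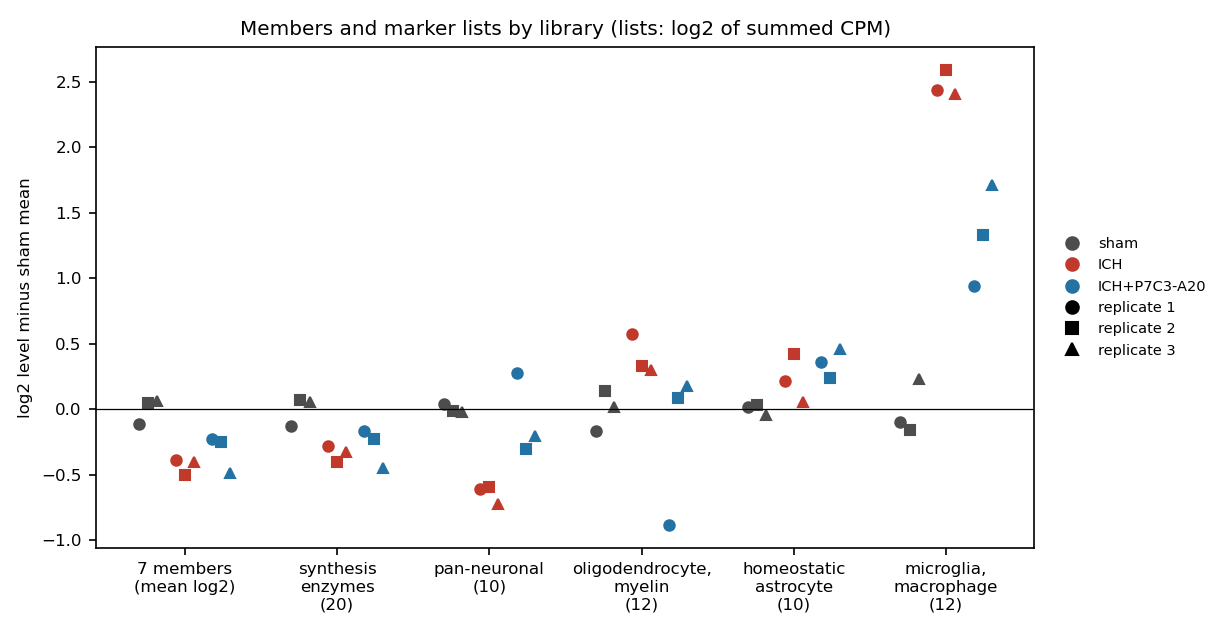
Mean log2 level of the 7 members and log2 summed CPM of 5 gene lists in each library, minus the sham mean; colours give the group and symbols the replicate. The members sit between -0.50 and -0.39 in ICH and between -0.49 and -0.23 in ICH+P7C3-A20, while ICH+P7C3-A20 1 lies far below the other libraries in the oligodendrocyte list.

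ICH+P7C3-A20 was compared with ICH to ask what the compound changed in the injured brain. None of the 7 members was called by edgeR, against 8.74% of all tested genes (2.69% higher and 6.05% lower). At an unadjusted p under 0.05 there were 2, Lss and Insig1, both higher, against 24.3% of tested genes in either direction. DESeq2 and limma on FPKM also called 0, and so did each fit that left out 1 library. The median log2 change of the members was 0.16, against -0.01 over all tested genes. This comparison shares its ICH libraries with the one above.

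Lss came closest to a separation of the groups. It measured 53.0, 42.7 and 46.4 CPM in ICH+P7C3-A20 1, 2 and 3, all above the ICH libraries, whose highest was 39.8 CPM. Its log2 change was 0.31 ± 0.11, with a 95% interval of 0.07 to 0.56 (edgeR adjusted p = 0.108). Lss was the only member whose groups did not overlap in CPM, where 15.1% of tested genes had every ICH+P7C3-A20 library above every ICH library. In FPKM the Lss groups overlapped. Insig1 measured 43.1, 45.8 and 34.4 CPM in ICH+P7C3-A20 1, 2 and 3. ICH+P7C3-A20 3 lay within the ICH range of 32.6 to 34.8 CPM and the other libraries above it. The log2 change of Insig1 was 0.27 ± 0.12, with a 95% interval of 0.01 to 0.53 (edgeR adjusted p = 0.183).

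The other members had intervals that included zero and groups that overlapped. Hmgcs1 measured 180.3, 181 and 131 CPM in ICH+P7C3-A20 1, 2 and 3, with a 95% interval of its log2 change of -0.24 to 0.39 (edgeR adjusted p = 0.812). Idi1 measured 28.2, 38.8 and 27.6 CPM, with ICH+P7C3-A20 2 alone above the ICH range (interval -0.17 to 0.50, adjusted p = 0.582). Without ICH+P7C3-A20 2 the log2 change was -0.00 for Hmgcs1 and -0.02 for Idi1, where it was 0.08 and 0.16 with all libraries. Fdft1 measured 72.4, 50.1 and 54.9 CPM, with ICH+P7C3-A20 1 alone above the ICH range (interval -0.13 to 0.49, adjusted p = 0.497). That library also had the lowest oligodendrocyte and the highest pan-neuronal marker sums of its group, at 6001 and 7166 CPM, and the part of these in the Fdft1 value was not tested.

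Sqle and Cyp51 had means below those of ICH. Sqle measured 44.6, 41.4 and 35.0 CPM in ICH+P7C3-A20 1, 2 and 3 (interval -0.37 to 0.18, edgeR adjusted p = 0.71), and Cyp51 52.5, 63.7 and 50.0 CPM (interval -0.33 to 0.15, adjusted p = 0.694). ICH+P7C3-A20 3 was the lowest library of all 9 for Hmgcs1, Idi1, Sqle and Cyp51. The ICH+P7C3-A20 libraries varied more among themselves than the ICH libraries for every member, with coefficients of variation of 11% to 20.1% against 2.99% to 11.3%.

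Among the 20 synthesis enzymes 1 was called, Ebp, which was lower with P7C3-A20 at 9.64, 14.3 and 10.1 CPM in ICH+P7C3-A20 1, 2 and 3 (log2 change -0.66 ± 0.17, edgeR adjusted p = 0.0366). That call ended without any ICH library, ICH+P7C3-A20 1 or ICH+P7C3-A20 3 (adjusted p 0.0956 to 0.131), with library totals alone and with limma at both pseudocounts (0.0824 to 0.0933). None of the 14 sterol sensing and SREBP control genes was called by edgeR, with 3 at an unadjusted p under 0.05, and DESeq2 and limma also called 0. The intervals were -0.03 to 0.37 for Srebf2 and -0.32 to 0.29 for Insig2.

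Several uptake, storage and LXR genes that were higher in ICH than in sham were lower with P7C3-A20 than in ICH. Both comparisons use the same ICH libraries, so a gene picked for being high in them is by that alone more prone to fall here. Over all tested genes 6.05% were called lower in this comparison. The share among genes called higher in ICH is not given here. Of the 17 uptake and transport genes 4 fell, among them Lipa at -1.12 ± 0.18, Npc2 at -0.77 ± 0.18 and Mylip at -0.54 ± 0.14 (edgeR adjusted p = 0.00793, 0.0257 and 0.035). Of the 7 storage and hydroxylation genes Soat1 and Ch25h fell, with log2 changes of -0.76 ± 0.11 and -1.85 ± 0.36 (edgeR adjusted p = 0.00684 and 0.0141), and Cyp46a1 had an interval of -0.00 to 0.63 (0.211). Of the 8 LXR genes Abca1, Nr1h3 and Lpcat3 fell by 0.87 ± 0.17, 0.88 ± 0.24 and 0.58 ± 0.15 (adjusted p = 0.0141, 0.0466 and 0.0405), and of the 12 fatty acid synthesis genes Me1 fell by 0.41 ± 0.11 (0.0398).

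Lipa and Soat1 kept these calls in all 22 other fits. The others did not in at least 1 fit: Npc2 without any ICH library or ICH+P7C3-A20 1 (adjusted p 0.0548 to 0.0976), and Ch25h and Abca1 without ICH 2 (0.0612 and 0.0595) or ICH 3 (0.0527 and 0.0505). Mylip and Lpcat3 lost theirs without sham 1, any ICH library, ICH+P7C3-A20 1 or ICH+P7C3-A20 2 (0.0509 to 0.129 and 0.0569 to 0.151). Me1 lost its call without sham 1, any ICH library or any ICH+P7C3-A20 library (0.0589 to 0.133), and Nr1h3 without sham 1, sham 2, ICH 1, ICH 2 or any ICH+P7C3-A20 library (0.0579 to 0.19).

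The 6 libraries above 12% ended the calls of Npc2, Mylip, Abca1, Lpcat3, Nr1h3 and Me1 (adjusted p 0.0505 to 0.0952), and the replicate block those of Mylip, Lpcat3, Nr1h3 and Me1 (0.0544 to 0.0811). Limma ended those of Npc2 and Me1 at both pseudocounts (0.058 to 0.0777) and that of Nr1h3 at 0.1 (0.0597). Upper quartile scaling and quantile normalization ended those of Nr1h3 and Me1 (0.0506 to 0.0673), and Nr1h3 was not called without a filter (0.0515) or in the compared groups alone (0.0537). Microglia and macrophage markers, 10 of 12 of which fell, summed to 849.7 to 1448 CPM in ICH+P7C3-A20 against 2338 to 2665 CPM in ICH, and 9 of 10 reactive astrocyte markers fell, to a sum of 1199 to 2331 CPM. Of 10 endothelial markers 3 fell, to a sum of 350 to 428 CPM. All 10 pan-neuronal markers were above zero and 2 were called higher. They summed to 4806 to 7166 CPM, against 3578 to 3914 CPM in ICH. All 12 oligodendrocyte and myelin markers were below zero and 1 was called lower. Of 10 homeostatic astrocyte markers 1 rose and 2 fell, and 1 of 10 cortical neuron markers rose. The cortical neuron markers had a median log2 change of 1.40, and 9 of the 10 were higher in CPM without overlap of the groups. No striatal, thalamic, hypothalamic or choroid plexus marker was called. Of all tested genes 2.69% were called higher. The part of these cell types in the changes was not tested.

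ICH+P7C3-A20 was also set beside sham, which shares libraries with both comparisons above. No member was called by edgeR, where 5.32% of all tested genes were (0.744% lower and 4.58% higher). At an unadjusted p under 0.05 were 6 of 7, all lower, against 18.2% of tested genes in either direction. DESeq2 called 1, Insig1 (log2 change -0.47, adjusted p = 0.00859), and limma on FPKM called 0. The median log2 change of the members was -0.33, against 0.03 over all tested genes. In CPM every ICH+P7C3-A20 library lay below every sham library for 4 of the 7 (Hmgcs1, Sqle, Cyp51 and Insig1), which was so for 7.84% of tested genes. In FPKM the groups overlapped for every member. Cell type markers also differed from sham. All 12 microglia and macrophage markers and 9 of 10 reactive astrocyte markers were called higher. So were 4 of 10 endothelial and 2 of 10 homeostatic astrocyte markers. Of 10 striatal neuron markers 3 were called lower, and no marker of the other lists was called. All 10 cortical neuron markers were above zero, with a median log2 change of 1.47. The part of cell composition in the members' differences was not tested.

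**Figure D4:**
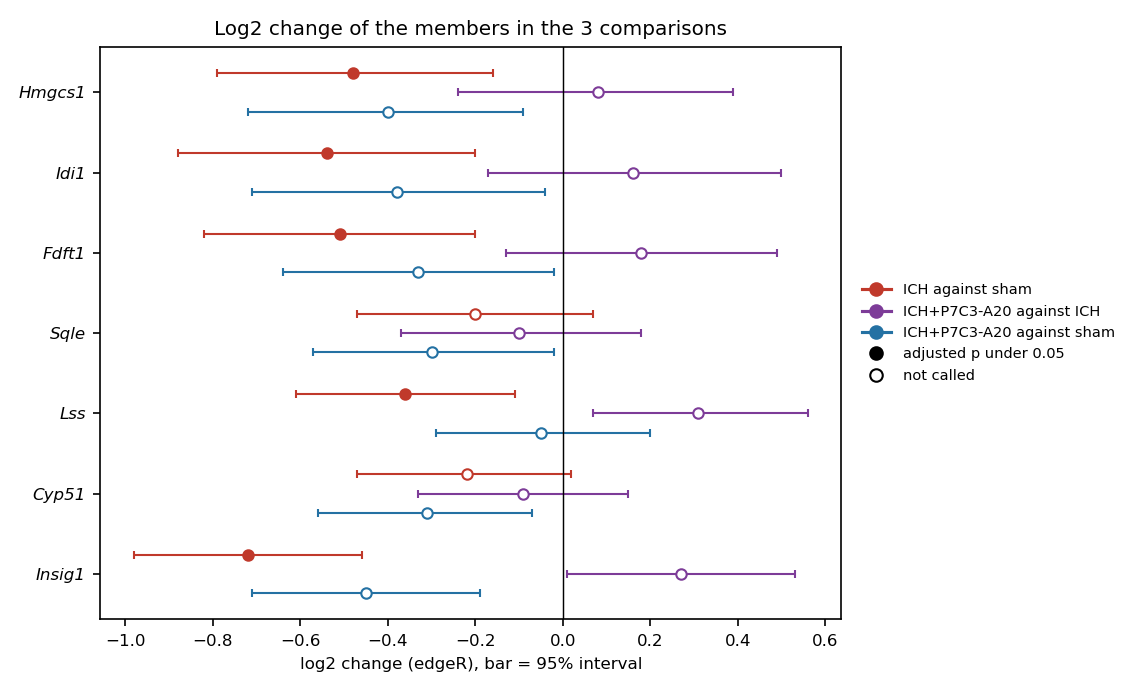
Log2 change of the 7 members in the 3 comparisons, from edgeR with 95% intervals; filled points are called at an adjusted p under 0.05. The 5 filled points all belong to ICH against sham, and the intervals for ICH+P7C3-A20 against sham lie below zero for every member but Lss.

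Insig1 stood closest to a call in ICH+P7C3-A20 against sham, at a log2 change of -0.45 with a 95% interval of -0.71 to -0.19 (edgeR adjusted p = 0.0523). It passed the threshold under RLE size factors (0.0476), without the filter on low counts (0.0429), with a filter on CPM (0.0442) and with the mitochondrial term (0.0298). Hmgcs1 and Cyp51 had intervals of -0.72 to -0.09 and -0.56 to -0.07 (edgeR adjusted p = 0.157 and 0.154). The intervals of Idi1, Fdft1 and Sqle reached -0.04, -0.02 and -0.02 at their upper ends (adjusted p = 0.216, 0.242 and 0.236). Fdft1 was called without ICH+P7C3-A20 1 (log2 change -0.50, adjusted p = 0.0324). Lss was at -0.05, with an interval of -0.29 to 0.20 (adjusted p = 0.893). By mean CPM, Lss stood at 48.9 in sham, 38.1 in ICH and 47.4 in ICH+P7C3-A20, while Cyp51 stood at 68.9, 59.0 and 55.4.

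Of the 20 synthesis enzymes edgeR called 0 and DESeq2 1 in ICH+P7C3-A20 against sham, with 7 at an unadjusted p under 0.05 and 19 below zero, as were 46.7% of all tested genes. Genes of the other lists called higher than sham were Ch25h (log2 change 5.03 ± 0.47, edgeR adjusted p = 0.000399), Abca1 (1.13 ± 0.17, 0.00405), Mylip (0.81 ± 0.14, 0.00723) and Lipa (0.91 ± 0.19, 0.018). A log2 change above zero was found in 13 of the 17 uptake and transport genes, 5 of the 7 storage genes and 6 of the 8 LXR genes. Genes not called cannot be taken as back at the sham level. With sham as low as 3 counts in a library, the Ch25h change was 5.80 without sham 1, 4.57 without sham 3 and 1.81 by limma on log2(FPKM + 1). The Lipa call ended without sham 1 (0.0791) or ICH+P7C3-A20 3 (0.0684), with limma on log2(FPKM + 1) (0.0726), in the compared groups alone (0.0855), with quantile normalization (0.0732) and in the 6 libraries (0.117). Abca1 was not called in the 6 libraries (0.079), nor Mylip in the compared groups alone (0.0568). Acly fell, with a log2 change of -0.39 ± 0.10 (edgeR adjusted p = 0.0447), a call that ended without each of the 9 libraries in turn (0.0539 to 0.175) and under 7 of the 13 other settings (0.0752 to 0.268).

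The members varied together across the 9 libraries to different degrees. These correlations share the group differences, library sizes and scaling of the same 9 libraries and are given as a description. Over the 21 pairs of members, Pearson's r of log2 CPM ran from -0.02 (Lss with Cyp51) to 0.92 (Hmgcs1 with Insig1), with a median of 0.72. After each group's mean was taken away it ran from -0.74 (Lss with Cyp51) to 0.92 (Hmgcs1 with Insig1), with a median of 0.43. Against the mean of the other 6 members, Insig1 had the highest r at 0.97 and Hmgcs1 followed at 0.95. Idi1, Fdft1, Sqle and Cyp51 had 0.82, 0.80, 0.76 and 0.72, and Lss had the lowest at 0.40.

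Among 10943 other named genes with a mean of at least 2 FPKM in a group, those most like the members' mean over the 9 libraries were Mdh1 (r = 0.993), Wdr37 (0.989), Nsg1 (0.983), Pik3ca and Tspyl1 (both 0.981), Rangap1 (0.979), Tmx2 and Hsp90aa1 (both 0.974), Ociad1 (0.968) and Dync1li1 (0.965). None of these 10 is on a cholesterol list used here. Of the pathway's own genes outside the set, Acat2 came highest at 0.95 (place 31), followed by Msmo1 at 0.92 (place 87). Srebf2 had 0.86 (place 380) and Ebp -0.38.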

How the data were processed

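Polyadenylated RNA from 9 mouse brains, 3 mice in each of 3 groups, was sequenced after a library preparation that marks strand, per the labels' protocols. Cutadapt 1.9, HISAT2 2.0.4 and StringTie 1.3.4d are named in the submitters' processing notes. Genome build, counting step and use of strand were not given in the sources used here. A single table was deposited with FPKM and whole-number estimated counts per gene and library, per the file headers. For 99.7% to 99.8% of low single-transcript genes in the libraries compared, the deposited estimated count equalled the next whole number above the product of FPKM, transcript length and a library constant (tolerance 0.1). Positions of all 7 members match GENCODE M21 (GRCm38).

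The estimated counts were analysed with edgeR 4.0.16 (R 4.3.3). Low genes were dropped by filterByExpr at a count of 10 and a total of 15, libraries were scaled by TMM, and the robust quasi-likelihood fit took 1 mean per group over all 9 libraries, which leaves 6 residual degrees of freedom. Tests were two-sided, with Benjamini-Hochberg adjustment over 21900 genes. An error is the log2 change over the root of F. Totals of 51537047 to 63324728 counts gave the members 1353 counts or more. Each p-value sets a group difference against the spread between mice within groups, estimated over all 3 groups together and partly shared across genes. Alternatives were other scalings and filters, DESeq2 1.42.0, limma 3.58.1 on log2(FPKM + 1) and log2(FPKM + 0.1), the compared groups alone, a replicate block, each library left out, and 3 settings chosen after seeing the data.

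Named were all members, called genes of 6 pathway lists (up to 6 per list and comparison by p), Srebf2, Insig2, Cyp46a1, marker genes and the 10 most alike genes. Some genes that enter the counts over lists are not reported here. Members, lists and tests were chosen with earlier results of these data known. On simulated counts, the fit recovered 5.97%, 11.9% and 11.9% of genes changed 1.5-fold for the contrasts of ICH with sham, of P7C3-A20 with ICH and of P7C3-A20 with sham (21201, 21240 and 21215 genes), and 44.8%, 32.8% and 41.8% of those changed 2-fold. False calls made up 5.06%, 4% and 5.95%. Each simulation changed 67, 67 and 66 genes by 1.5-fold, 2-fold and 4-fold, far fewer than were called in these data. Its recovery therefore need not equal that of the fit on the real counts. Shared sequence was searched with minimap2 2.31. Python 3.11.15 and matplotlib 3.10.9 made the plots.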

Additional observations from a re-analysis of the deposited data

How the results depend on the processing

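Calls of members in ICH against sham sit near the threshold: 5 were called, 2 with library totals alone, 1 with limma on log2(FPKM + 1) and 1 on log2(FPKM + 0.1), 2 in the 6 libraries above 12% mitochondrial share, and 1 to 5 without 1 library. For the 20 enzymes, 10 were called, 2 with library totals alone, 0 and 0 with limma at the 2 pseudocounts, 5 with the replicate block, 2 in the 6 libraries, and 1 to 10 without 1 library. Lower calls over all genes dropped in these settings too, from 2283 to 1475 with library totals alone and 1112 and 1154 with limma. They numbered 2078 with the replicate block, 1719 in the 6 libraries and 1354 to 2510 without 1 library. Replicate numbers do not pair the libraries (same-number correlations of deviations were -0.128 to 0.0919). The replicate block gave 5326, 1697 and 944 genes called in the 3 comparisons and 4, 0 and 0 members, with Hmgcs1 at an adjusted p of 0.0548. For ICH+P7C3-A20 against ICH, 1914 genes were called, 3476 with DESeq2, 1250 with limma on log2(FPKM + 0.1), 3143 with the mitochondrial term, 1073 in the 6 libraries and 571 to 2695 without 1 library. The single enzyme called became 0 with library totals alone and 0 and 0 with limma, and was 0 to 1 without 1 library. For ICH+P7C3-A20 against sham, 1165 genes were called, 2109 with DESeq2, 331 and 527 with limma at the 2 pseudocounts, 435 in the compared groups alone, 494 with quantile-normalized FPKM, 615 in the 6 libraries and 538 to 1434 without 1 library. The 0 members called became 1 with RLE size factors, 1 without a filter, 1 with the CPM filter, 1 with DESeq2 and 1 with the mitochondrial term, and 0 to 1 without 1 library. The 0 enzymes called became 1 with the CPM filter, 1 with DESeq2 and 1 with the mitochondrial term, and 0 to 1 without 1 library. Quantile normalization, the mitochondrial term and the 6 libraries were chosen after seeing the data.

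Directions of called values did not reverse in any setting. Among values not called, ICH+P7C3-A20 against ICH reversed to -0.01 for Hmgcs1 and -0.02 for Idi1 in the 6 libraries and to -0.00 and -0.02 without ICH+P7C3-A20 2 (leaving out 1 library gave -0.00 to 0.22 and -0.02 to 0.25). In that comparison Insig2 reversed to 0.02 with upper quartile scaling, 0.01 with quantile normalization, 0.04 without ICH 3, 0.01 without ICH+P7C3-A20 1 and 0.09 without ICH+P7C3-A20 3 (range -0.15 to 0.09). Lss in ICH+P7C3-A20 against sham reversed to 0.03 without sham 1 and 0.02 without ICH+P7C3-A20 2 (range -0.13 to 0.03). Higher against lower calls split 3418 to 2283 in ICH against sham, 3340 to 1475 with library totals alone and 2949 to 3192 with quantile normalization of FPKM; limma on log2(FPKM + 1) and log2(FPKM + 0.1) gave 3064 to 1112 and 3075 to 1154. ICH+P7C3-A20 against ICH split 590 to 1324, and 302 to 1248 with library totals alone; limma gave 214 to 1397 and 186 to 1064. ICH+P7C3-A20 against sham split 1002 to 163, and DESeq2 gave 1558 to 551. No scaling moved the median log2 change of all genes by over 0.1. The cause of these differences was not tested.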
